A study of Mus musculus with 12 samples.

Results

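The genes described here are the nuclear subunits of respiratory complexes II, III, IV and V of mouse kidney mitochondria. They were taken by symbol: protein-coding genes named Sdha to Sdhd, Cyc1, or beginning with Uqcr, Cox4 to Cox8 or Atp5. The rule gave 46 genes among the 32199 listed for one comparison and the 31719 listed for the other, namely 4 of complex II, 9 of complex III, 16 of complex IV and 17 of complex V. Complex I was left to a separate list because its genes carry other names.

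Kidneys came from 12 male mice aged 8 weeks in which acute kidney injury was induced by a contrast agent, the same in all 4 groups. A kidney had been removed 3 weeks earlier. Water was then withheld for 24 h, furosemide (a loop diuretic) was given 20 min before iodixanol (an iodinated contrast agent), and the remaining kidney was taken 24 h after the contrast. The PAD4 set held 3 wild-type C57BL/6 mice and 3 Padi4 knockout mice, and the IL-33 set another 3 wild-type C57BL/6 mice and 3 mice labelled Il33 knockout. The labels give each set its own batch and state no tissue restriction, breeding scheme or substrain for either knockout. No uninjured group was analysed here, so each comparison is between injured kidneys of different genotype.

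Complexes II, III and IV pass electrons to oxygen in the inner mitochondrial membrane, and complexes III and IV pump protons across it. Complex V, the ATP synthase, lets the protons return and makes ATP. Kidney tubules, above all those of the proximal tubule and thick ascending limb, are dense in mitochondria because reabsorption consumes much ATP. Complex II is encoded wholly in the nucleus, whereas complexes III, IV and V also hold subunits encoded in the mitochondrial genome. Promoters of many of these nuclear genes carry sites for NRF1 and for ETS-family factors such as NRF2 (GABP).

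The bases just before the transcription start are shown for a few genes that the results turn on, each 150 bases, 5′ to 3′ on the gene's own strand, from RefSeq on GRCm38.p6. Sdha and Sdhb, and Cox5a and Cox5b, are neighbours within a complex that moved unequally in the PAD4 set. Cox6a1 and Atp5e were among its largest rises. Uqcr10 (2.76) and Cox7b (2.65) rose more than both and are not printed. Capitals mark a match, on either strand, to an NRF1 core (GCGCA and GCGC with any base between) or an ETS core (CCGGAAG).
Sdha, chr13:74350241-74350390, minus strand: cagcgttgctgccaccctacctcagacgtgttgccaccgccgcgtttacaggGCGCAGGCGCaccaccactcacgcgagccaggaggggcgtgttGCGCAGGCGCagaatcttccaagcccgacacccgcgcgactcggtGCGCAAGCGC
Sdhb, chr4:140961121-140961270, plus strand: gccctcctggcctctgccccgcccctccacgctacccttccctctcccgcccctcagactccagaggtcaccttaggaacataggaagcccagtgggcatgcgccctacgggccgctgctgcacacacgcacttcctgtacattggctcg
Cox5a, chr9:57521082-57521231, plus strand: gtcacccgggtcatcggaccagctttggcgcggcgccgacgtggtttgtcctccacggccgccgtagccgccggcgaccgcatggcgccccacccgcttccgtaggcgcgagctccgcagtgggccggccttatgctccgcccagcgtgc
Cox5b, chr1:36691337-36691486, plus strand: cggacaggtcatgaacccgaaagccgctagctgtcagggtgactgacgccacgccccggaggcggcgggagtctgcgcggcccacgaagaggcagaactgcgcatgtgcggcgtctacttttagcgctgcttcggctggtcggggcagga
Cox6a1, chr5:115348959-115349108, minus strand: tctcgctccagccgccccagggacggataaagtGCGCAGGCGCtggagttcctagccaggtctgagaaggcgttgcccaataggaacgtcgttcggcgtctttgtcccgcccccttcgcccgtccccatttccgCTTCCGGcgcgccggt
Atp5e, chr2:174464102-174464251, minus strand: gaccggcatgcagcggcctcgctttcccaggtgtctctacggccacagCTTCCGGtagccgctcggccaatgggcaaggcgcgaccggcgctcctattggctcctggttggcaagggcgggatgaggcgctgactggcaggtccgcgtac

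Of the 46 genes, 35 matched a RefSeq promoter window of 250 bases before to 50 after the start. The NRF1 core was in 10 of these windows (28.6%), against 5.19% of the windows of 27025 genes. The ETS core was in 12 (34.3%, against 9.93%) and the YY1 core AAGATGG in 4 (11.4%, against 7.28%). Sdha held 3 NRF1 matches in the printed stretch, whereas the printed stretches of Sdhb, Cox5a and Cox5b held none of the NRF1 and ETS cores. The whole window of Sdhb, which the counts use, did hold an ETS core. The windows of Uqcr10 and Cox7b held none of the NRF1, ETS and YY1 cores. The NRF1 core was about as common among the 24 windows of genes that rose in the PAD4 set (29.2%) as among the 11 windows of genes that did not pass there (27.3%). The ETS core was in 41.7% of the former and 18.2% of the latter. These shares are descriptions of letters in a window. The starts that RefSeq gives for Sdhd, Uqcr10, Cox5a, Cox7a2l, Atp5g1 and Atp5s were not found in a GENCODE transcript of the gene. Their windows are counted in these shares.

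Expression is given as FPKM (fragments per kilobase of a transcript, scaled to all fragments mapped), which can be compared between genes. A change is the mean of the knockouts less that of the wild types, in units of log2(FPKM + 1), with its standard error, tested with limma and called where the adjusted p (Benjamini-Hochberg over all genes tested) was under 0.05. Genes with a mean of at least 0.5 FPKM in their set were tested: all 46 in the PAD4 set, and 44 in the IL-33 set, where Cox6a2 and Cox8b were below that level. Padi4, the targeted gene, was at 0.704, 1.06 and 1.67 FPKM in the wild types of the PAD4 set. In the PAD4 knockouts it was at 0.217, 0.497 and 0.187 FPKM and passed as lower (-0.71 ± 0.19, limma adjusted p 0.0147). Its transcript was thus low but still listed in every knockout library, which does not by itself settle that label. Il33 was at 1.71, 1.13 and 3.64 FPKM in the wild types and at 1.14, 0.616 and 1.02 FPKM in the libraries labelled IL-33 knockout, so that the groups overlapped and the change did not pass (limma adjusted p 0.099). Il33 was also lower in the PAD4 knockouts, at 0.889, 1.58 and 1.28 FPKM against 3.57, 5.29 and 3.28 FPKM (-1.15 ± 0.23, adjusted p 0.00208). Padi4 was listed at 0 or under 0.03 FPKM in all 6 libraries of the IL-33 set. The IL-33 knockout label is therefore not checked by its transcript, and these are called the labelled libraries throughout. Summed FPKM was 700601 to 812981 per library in the PAD4 set, of which 52.0% to 60.0% was mitochondrially encoded, and 385124 to 420279 in the IL-33 set, with 24.1% to 29.2%. Levels were therefore tested only within a table.

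In the PAD4 knockout kidneys most nuclear subunits of complexes II to V rose, many of them several-fold. No member passed as lower, and 3 had a change below 0. Summed over the 46 genes, FPKM was 939.8, 1122 and 1310.1 in the wild-type libraries and 8160.2, 3221 and 4736 in the knockout libraries, a 4.78-fold ratio of means. Of the 46, 31 passed as higher, 0 as lower and 15 did not pass (35 higher and 0 lower at an unadjusted p under 0.05). Over all 13986 genes tested, 8.89% passed as higher and 8.79% as lower. The median change of the members was 2.13, beside 0.02 over all genes tested, with a range from -0.52 to 2.76. Every knockout library was above every wild-type library for 34 members, where 17.2% of all genes showed this.

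The libraries within a group were not alike. Knockout library 1 was the highest of its group for 41 of the 46 members and knockout library 2 the lowest for 40. Among the wild types, library 1 was the lowest for 41. With each library left out in turn, 28 to 37 members passed as higher. In 2 of these fits 1 member passed as lower, Cox6a2 without knockout library 2 and Cox8b without knockout library 3. With no filter on level, 0 members and 0 of 32199 genes passed in limma (33 members higher and 0 lower, and 2970 and 3083 genes, at an unadjusted p under 0.05; lowest adjusted p of a member 0.0763).

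**Figure D1:**
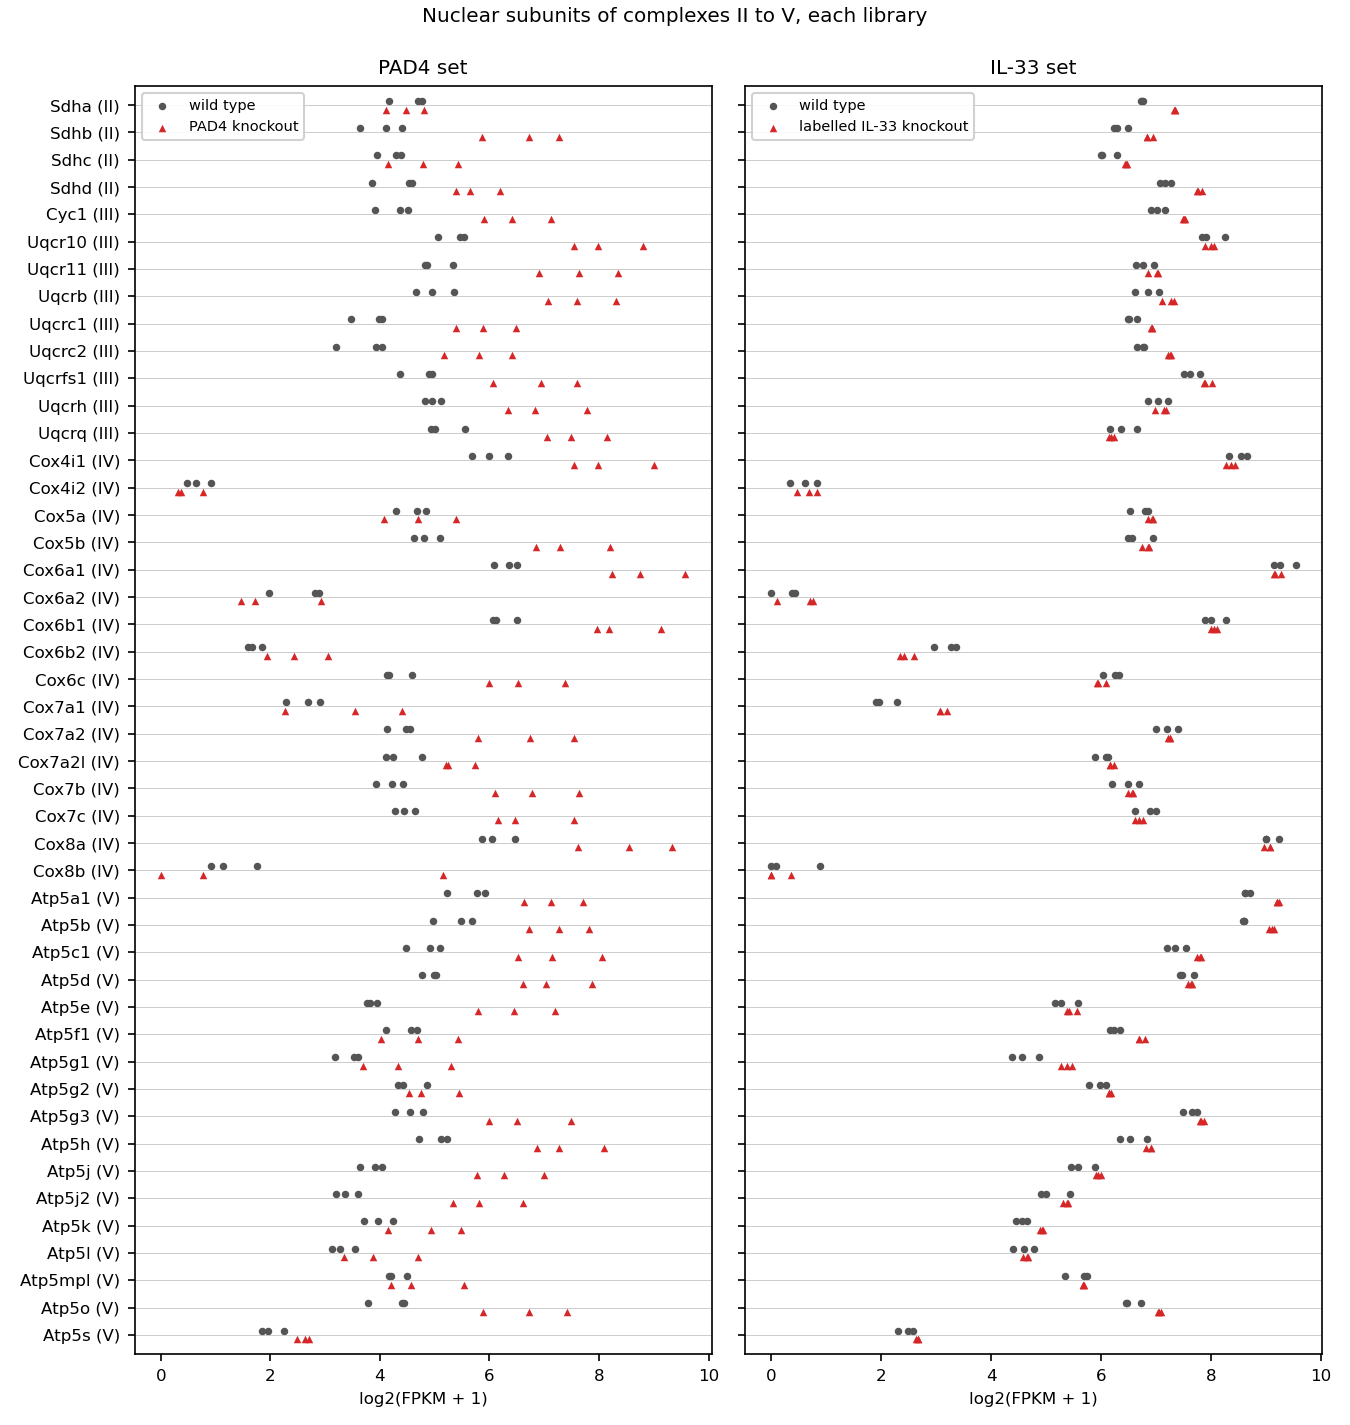
Level of each of the 46 nuclear subunits as log2(FPKM + 1) in every library, with wild type as grey circles and knockout as red triangles, for the PAD4 set (left) and the IL-33 set (right), complex in brackets. In the PAD4 set the knockout triangles lie above all wild-type circles for 34 members, whereas Sdha, Sdhc, Cox5a and Atp5f1 overlap. In the IL-33 set most members lie close together.

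Several lists of markers also changed in the PAD4 set, tubule lists upward and several of other tissues downward, though not all lists changed. Markers of the proximal tubule were higher for 11 of 14 tested, and their summed level was 5179, 4904 and 8164 FPKM in the wild types and 25182, 9899.8 and 15939 FPKM in the knockouts, the same order of knockout libraries as the members. Thick ascending limb markers were higher for 6 of 10, with sums that overlapped: 72.98, 225 and 136 FPKM in the wild types, and 811, 135.8 and 458 FPKM in the knockouts. Colon epithelium markers, of which Krt20 is also expressed by injured tubules, were lower for 14 of 15. Their sums were 469, 659 and 665 FPKM in the wild types and 158, 273 and 177 FPKM in the knockouts. Lung markers were lower for 9 of 10 (304 to 866 FPKM against 44.3 to 219 FPKM), smooth muscle markers for 8 of 10 (354 to 765 against 67.0 to 248.9 FPKM) and neutrophil markers for 5 of 9 (101 to 205 against 14.6 to 88.6 FPKM). Of skeletal and heart muscle markers 1 of 8 tested was lower, with sums that overlapped (53.1 to 144 against 22.9 to 97.8 FPKM). Brown fat markers had 1 higher and 1 lower of 6 tested. The higher one was Ppargc1a, which is also a regulator of mitochondrial biogenesis. The 1 testis germ cell marker tested did not pass. Of all genes listed for the PAD4 set, 0 were at 0 in all 6 libraries, so a listed marker could not be. The part of these markers in the rise of the respiratory genes was not tested. In bulk tissue more cells of a type and more RNA per cell cannot be told apart.

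**Figure D2:**
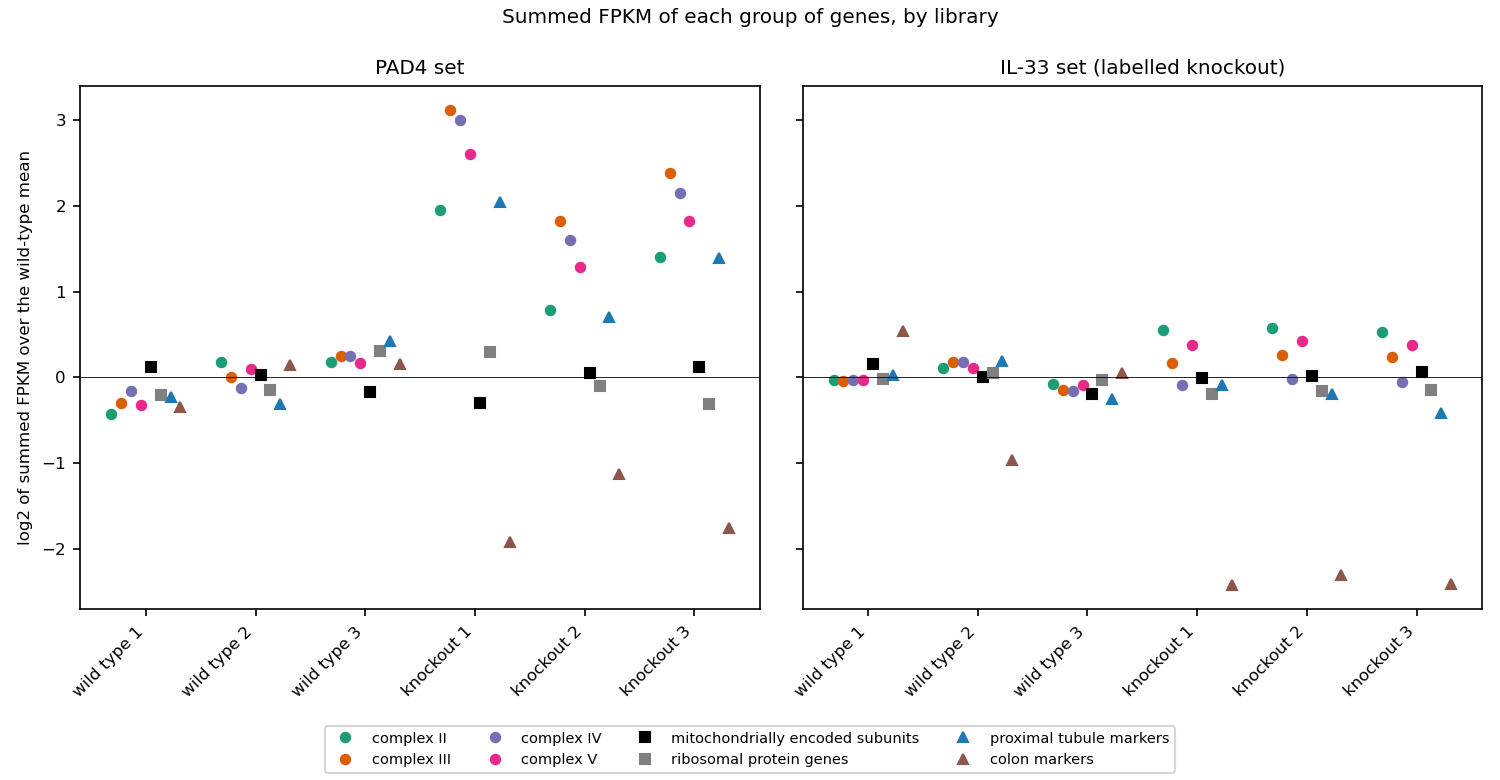
Summed FPKM of each complex's nuclear subunits, of the mitochondrially encoded subunits of complexes III to V, of ribosomal protein genes and of 2 marker lists, as log2 over the wild-type mean of the set, for each library. In the PAD4 knockouts complexes II to V and the proximal tubule markers are high and the colon markers low, in all 3 libraries, while mitochondrially encoded and ribosomal protein genes stay near 0.

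Complex II, succinate dehydrogenase, divided in the PAD4 set. Its catalytic core is Sdha, the flavoprotein that oxidises succinate, and Sdhb, the iron-sulfur subunit to which it is bound. Sdha (ENSMUSG00000021577) was at 16.8, 24.9 and 26.3 FPKM in the wild types and at 26.96, 16.3 and 21.2 FPKM in the knockouts. The groups overlapped fully, with a change of -0.08 ± 0.31 (adjusted p 0.908). Sdhb (ENSMUSG00000009863) was at 11.4, 20.3 and 16.3 FPKM in the wild types and at 153, 57.1 and 105 FPKM in the knockouts, every knockout being above every wild type, and rose by 2.56 ± 0.37 (adjusted p 0.000183). Of the membrane anchors, Sdhd rose from 13.5, 22.1 and 23.1 FPKM to 71.99, 40.9 and 49.2 FPKM (1.42 ± 0.33, adjusted p 0.00622). Sdhc stood at 14.4, 18.6 and 19.9 FPKM against 42.02, 16.7 and 26.5 FPKM, with overlap (0.57 ± 0.34, adjusted p 0.262). Without wild-type library 1 the call of Sdhd was lost (1.18, adjusted p 0.0691).

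The ratio of Sdhb to Sdha within a library does not depend on the scaling of that library. It was 0.679, 0.814 and 0.622 in the wild types and 5.67, 3.505 and 4.94 in the PAD4 knockouts. The IL-33 set had values between 0.696 and 0.822, over all 6 libraries. The wild types of both sets and the labelled IL-33 knockouts thus held slightly less Sdhb than Sdha transcript, and the PAD4 knockouts several times more. This pair was chosen after its values were seen, so the ratio is given without a test.

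All 9 subunits of complex III, the cytochrome bc1 complex, rose in the PAD4 knockouts, by 2.02 to 2.76. Uqcr10, a small subunit, showed the largest rise of the 46 genes, from 32.4, 43.02 and 45.4 FPKM to 444, 186 and 253 FPKM (2.76 ± 0.36, adjusted p 0.000109). Uqcrb, which lies at the quinone site, rose from 24.2, 30.03 and 39.8 FPKM to 314, 132 and 193 FPKM (2.67 ± 0.36). Uqcrh, the acidic hinge protein, had the smallest rise, from 27.2, 29.9 and 33.6 FPKM to 218, 80.01 and 113 FPKM (2.02 ± 0.36, adjusted p 0.00108). Even there, the lowest knockout stood above the highest wild type.

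The redox subunits of complex III moved with the small ones. Uqcrfs1 (ENSMUSG00000038462), the Rieske iron-sulfur protein, was at 19.7, 28.8 and 29.8 FPKM in the wild types and at 193, 66.1 and 122 FPKM in the knockouts (2.13 ± 0.37, adjusted p 0.00095). Cyc1 (ENSMUSG00000022551), cytochrome c1, was at 13.9, 21.8 and 19.6 FPKM and at 138, 58.8 and 84.6 FPKM (2.22 ± 0.35, adjusted p 0.0004). Uqcrfs1 over Cyc1 was 1.32 to 1.52 in wild type and 1.12 to 1.45 in the knockouts, so this pair kept nearly its ratio where Sdhb and Sdha did not. Uqcrc1 (ENSMUSG00000025651), a core protein, went from 10.1, 14.9 and 15.4 FPKM to 88.6, 41.01 and 57.9 FPKM (2.09 ± 0.33, adjusted p 0.000463). Its partner Uqcrc2 and the small subunits Uqcr11 and Uqcrq rose by 2.08, 2.62 and 2.40.

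In complex IV, cytochrome c oxidase, 10 of 16 subunit genes rose in the PAD4 knockouts. Cox7b, a small membrane subunit, rose most, from 14.3, 20.5 and 17.6 FPKM to 197, 67.7 and 109 FPKM (2.65 ± 0.37, adjusted p 0.000159). Cox4i1 (ENSMUSG00000031818), the ubiquitous isoform of the largest nuclear subunit, went from 62.6, 50.3 and 80.2 FPKM to 513, 187 and 252 FPKM (2.18 ± 0.38, adjusted p 0.000868). Cox6a1, Cox6b1, Cox6c, Cox7a2, Cox7c and Cox8a rose by 2.20 to 2.53. Cox7a2l, which takes part in joining complexes into supercomplexes, rose by 1.02 ± 0.31 (adjusted p 0.0305). All 10, Cox5b among them, were above every wild type in every knockout library.

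Cox5a and Cox5b, a pair of matrix-side subunits, parted in the same way as Sdha and Sdhb. Cox5b (ENSMUSG00000061518) was at 23.5, 26.9 and 33.1 FPKM in the wild types and at 292, 115 and 154 FPKM in the knockouts (2.61 ± 0.36, adjusted p 0.000156). Cox5a (ENSMUSG00000000088) was at 18.7, 24.7 and 27.6 FPKM and at 40.7, 15.8 and 25.02 FPKM, with overlap (0.11 ± 0.34, adjusted p 0.874). The ratio of Cox5b to Cox5a went from 1.09 to 1.26 in wild type up to 6.17 to 7.26 in the knockouts, while all libraries of the IL-33 set had 0.854 to 1.06. This pair, too, was chosen after its values were seen.

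None of the 5 listed tissue-restricted isoforms of complex IV passed in the PAD4 set. Cox4i2, the lung and hypoxia isoform, stayed under 1 FPKM in all libraries of the set (-0.20 ± 0.18). Cox6a2, the heart and muscle isoform, was at 2.92, 6.43 and 6.07 FPKM in the wild types and at 1.77, 6.61 and 2.30 FPKM in the knockouts (-0.52 ± 0.33, adjusted p 0.313). Without knockout library 2 that difference passed as lower (-0.97, adjusted p 0.00592). Cox6b2, known from testis, was at 2.01, 2.17 and 2.61 FPKM against 7.32, 4.40 and 2.83 FPKM and missed the threshold with no overlap (0.77 ± 0.27, adjusted p 0.0516). It passed in 5 of the other settings, among them without knockout library 3 (adjusted p 0.0133) and without knockout library 2. The isoforms Cox7b2 and Cox8c are not among the genes listed in these tables.

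Cox7a1 and Cox8b, isoforms of muscle and brown fat, were highest in knockout library 3. Cox8b was listed at 0.885, 2.38 and 1.21 FPKM in the wild types and at 0, 0.710 and 34.7 FPKM in the knockouts, and Cox7a1 at 3.87, 5.42 and 6.48 FPKM against 10.7, 3.82 and 20.3 FPKM. The changes were 0.71 ± 0.77 and 0.79 ± 0.39 and did not pass. Without that library the change of Cox8b was -0.89 (adjusted p 0.0148), and without knockout library 2 it was 1.31 (adjusted p 3.22e-05) and that of Cox7a1 1.36 (adjusted p 0.000323). The same library held 79.97 FPKM of Ucp1 and 10.3 FPKM of Cidea, markers of brown fat. The other 5 libraries held at most 3.04 and 0.652 FPKM. Of the 6 brown fat markers tested, Cox8b among them, 1 passed as higher, namely Ppargc1a, and 1 as lower. The 7 markers of that list summed to 131.6 FPKM in knockout library 3 and 4.25 to 10.04 FPKM in the others. Whether those markers account for the 2 isoforms was not tested.

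In complex V, the ATP synthase, 10 of 17 genes rose in the PAD4 knockouts and 7 did not pass, and all 17 changes were above 0. Atp5a1 (alpha) and Atp5b (beta) form the catalytic head. Atp5a1 (ENSMUSG00000025428) was at 36.4, 59.2 and 53.6 FPKM in the wild types and at 209, 97.6 and 138 FPKM in the knockouts (1.51 ± 0.35, adjusted p 0.00622). Without wild-type library 1 it missed the threshold (1.31, adjusted p 0.0777). Atp5b (ENSMUSG00000025393) was at 30.4, 50.5 and 43.4 FPKM and at 225, 105 and 153 FPKM (1.89 ± 0.35, adjusted p 0.0014). The central stalk genes Atp5c1 (gamma), Atp5d (delta) and Atp5e (epsilon) rose by 2.41, 2.25 and 2.63. Atp5e showed the largest rise of the complex, from 12.6, 13.1 and 14.5 FPKM to 145, 54.3 and 85.9 FPKM (adjusted p 0.000116).

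The peripheral stalk, which holds the head still against the rotor, was divided. Atp5h (subunit d), Atp5j (F6) and Atp5o (the oligomycin sensitivity protein) rose by 2.39, 2.49 and 2.46. Atp5f1 (subunit b) was at 16.2, 22.6 and 24.7 FPKM in the wild types and at 42.00, 15.2 and 24.98 FPKM in the knockouts, with overlap (0.27 ± 0.35, adjusted p 0.67). Among the membrane subunits, Atp5j2 (f) rose by 2.53 ± 0.34, from 8.19, 9.27 and 11.2 FPKM to 96.9, 39.4 and 55.3 FPKM. Atp5k (e, 0.88), Atp5l (g, 0.66) and Atp5mpl (a small proteolipid, 0.48) did not pass, nor did Atp5s (0.59), whose product is not a core subunit.

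The rotor ring of complex V is built of subunit c, for which 3 nuclear genes encode the same mature protein. In PAD4 knockouts Atp5g3 rose from 18.4, 22.4 and 26.8 FPKM to 179, 62.6 and 89.7 FPKM (2.12 ± 0.37, adjusted p 0.000877). Atp5g1 was at 8.01, 11.2 and 10.5 FPKM against 38.2, 11.9 and 19.1 FPKM (1.00 ± 0.35, adjusted p 0.0549), without overlap, and passed in 4 of the other settings, among them without knockout library 2 (adjusted p 0.000717). Atp5g2 overlapped (0.37 ± 0.32, adjusted p 0.478). Atp5g3 over Atp5g2 was thus 0.955 to 1.095 in wild type and 2.83 to 4.19 in the knockouts. The IL-33 set had 3.14 to 3.32 throughout.

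**Figure D3:**
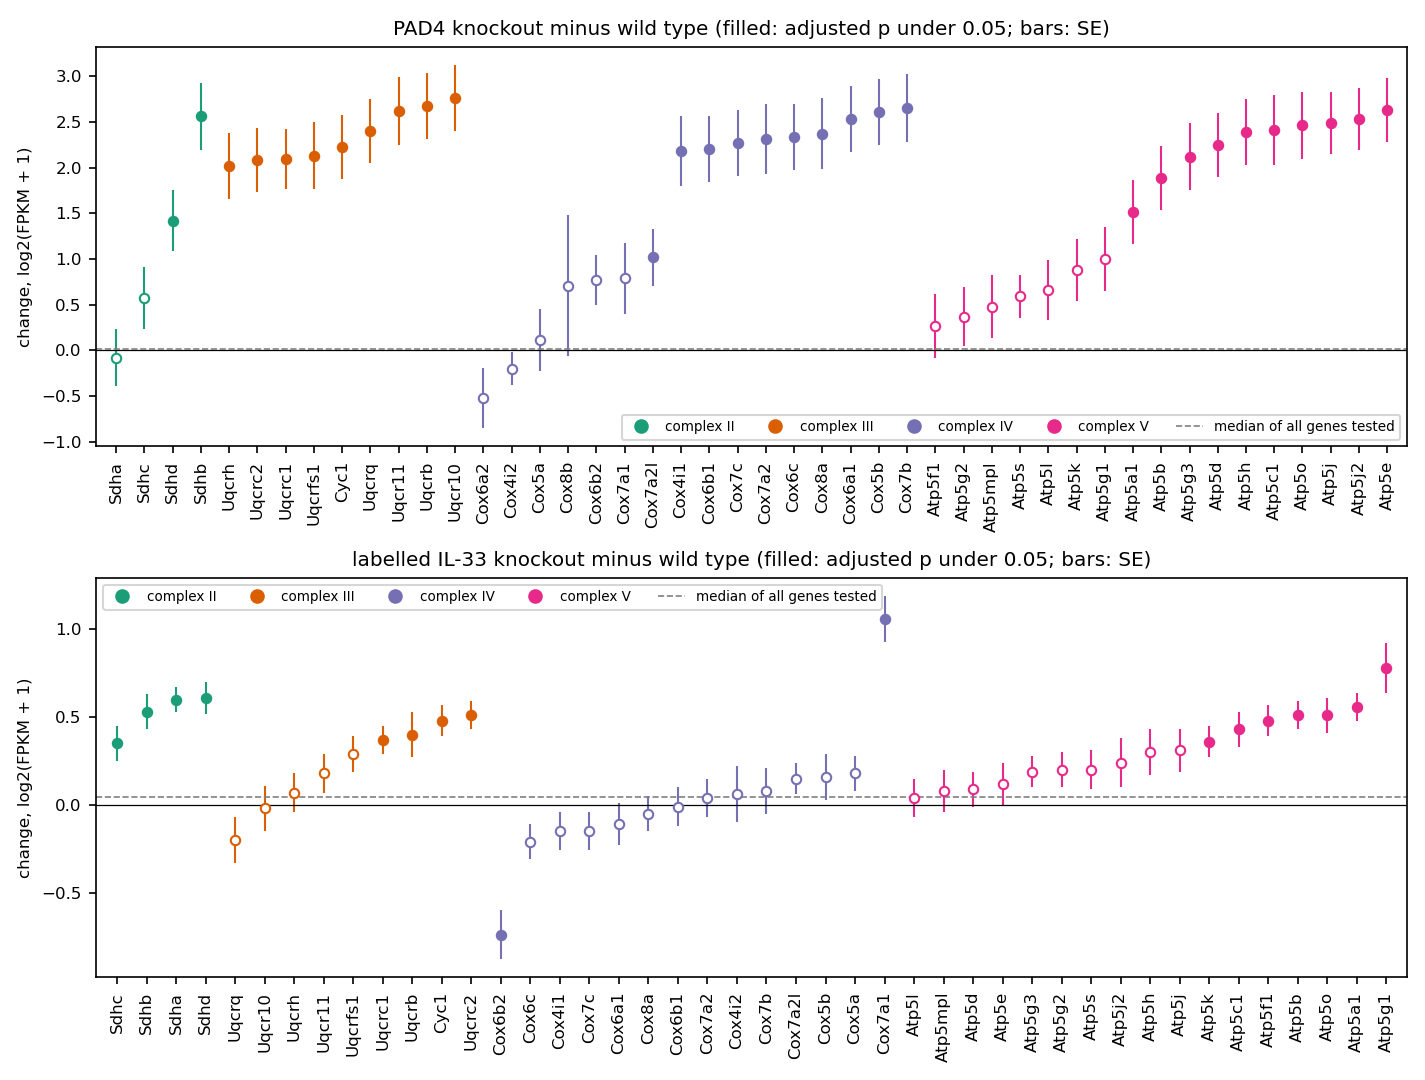
Change of each tested member, knockout minus wild type, as log2(FPKM + 1) with its limma SE, ordered within complexes. Filled points passed the threshold and the dashed line is the median of all genes tested. At the top (PAD4 set) all 9 genes of complex III are filled, whereas complexes II, IV and V hold filled points between 1.02 and 2.65 and open points between -0.52 and 1.00. At the bottom (IL-33 set) all 4 genes of complex II are filled and only 2 of 14 in complex IV.

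The same genes differed far less in the IL-33 set, and complexes parted in another order. Complex II was higher in the labelled knockouts for 4 of 4 genes, complex III for 4 of 9, complex V for 7 of 17, and complex IV for 1 of 14, with 1 lower. That made 16 of 44 higher and 1 lower (19 and 1 at an unadjusted p under 0.05), where 22.2% of all 14513 genes tested passed as higher and 16.8% as lower. The median change of the members was 0.20, beside 0.04 over all genes, and the range -0.74 to 1.06. Every labelled knockout was above every wild type for 22 members, where 30.2% of all genes showed this. Under median-of-ratios scaling 11 members passed as higher and 1 as lower, and the median was 0.10. Whether complexes differ from each other was not tested.

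Summed FPKM for complex II was 387, 427 and 375 FPKM in the wild types and 584, 589 and 571 FPKM in the labelled knockouts, a 1.47-fold ratio with no overlap. For complex V it was 1862, 2053 and 1787 FPKM against 2475, 2552 and 2469.6 FPKM (1.31-fold), also without overlap. Complex III had 1182, 1379 and 1103 FPKM against 1372, 1467 and 1443 FPKM (1.17-fold), with overlap. Complex IV had 2461, 2839 and 2246 FPKM against 2369, 2477 and 2422 FPKM (0.963-fold), and its groups overlapped fully. In wild type, library 2 was the highest for 39 members and library 3 the lowest for 33.

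The catalytic subunits of complex II moved together in the IL-33 set. Sdha was at 105, 108 and 105 FPKM in the wild types and at 161, 162 and 159 FPKM in the labelled knockouts (0.60 ± 0.07, adjusted p 0.000759). Sdhb was at 76.9, 88.4 and 73.7 FPKM against 121, 113 and 112 FPKM (0.53 ± 0.10, adjusted p 0.00398). Sdhd rose from 142, 154 and 133 FPKM to 215, 227 and 214 FPKM (0.61 ± 0.09, adjusted p 0.00146). Sdhc was at 62.8, 77.4 and 63.4 FPKM against 86.2, 87.6 and 85.6 FPKM (0.35 ± 0.10, adjusted p 0.0285). The call of Sdhc was lost in 5 of the 6 fits that left out a library, with adjusted p up to 0.092, and under median-of-ratios scaling (0.161).

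In complex III, the genes called higher in the labelled libraries were those of the core proteins, cytochrome c1 and Uqcrb. Uqcrc2 was at 107, 109 and 99.5 FPKM in the wild types and at 153, 151 and 147 FPKM in the labelled knockouts (0.51 ± 0.08, adjusted p 0.002). Cyc1 was at 119.5, 143 and 127 FPKM against 182, 182 and 179 FPKM (0.48 ± 0.09, adjusted p 0.00494). Uqcrc1 was at 88.7, 100.01 and 89.5 FPKM against 120.4, 121 and 119 FPKM (0.37 ± 0.08, adjusted p 0.0102), and its call was lost under median-of-ratios scaling (0.101). Uqcrb (0.40 ± 0.13, adjusted p 0.0391) lost its call in 5 of the 6 fits that left out a library. Uqcrfs1 was at 195, 220.3 and 180.1 FPKM against 235, 257 and 233 FPKM and did not pass, though the groups did not overlap (0.29 ± 0.10, adjusted p 0.0568). Uqcr10, the largest riser of the PAD4 set, was at 239.6, 305 and 226 FPKM against 236, 255 and 265 FPKM (-0.02 ± 0.13, adjusted p 0.927). Its sign turned under TPM scaling (0.02).

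Complex IV genes were nearly level in the IL-33 set, with 7 changes above 0 and 7 under. Cox4i1 was at 373, 402 and 319.8 FPKM in the wild types and at 308, 346 and 327 FPKM in the labelled knockouts (-0.15 ± 0.11, adjusted p 0.297). Cox5a was at 109, 115 and 91.2 FPKM against 114, 122 and 119.9 FPKM (0.18 ± 0.10), and Cox5b at 93.5, 122 and 88.97 FPKM against 107, 116 and 114 FPKM (0.16 ± 0.13). Cox6b1 had the smallest difference (-0.01 ± 0.11, adjusted p 0.965), and its sign turned under TPM scaling (0.03).

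The 2 calls in complex IV fell on isoforms of low level. Cox7a1, the heart and muscle isoform, was at 2.91, 2.76 and 3.85 FPKM in the wild types and at 8.16, 7.43 and 7.43 FPKM in the labelled knockouts (1.06 ± 0.13, adjusted p 0.000703). Its ubiquitous partner Cox7a2, at 126 to 168 FPKM, did not pass (0.04 ± 0.11). Cox6b2 was at 9.24, 8.58 and 6.74 FPKM against 4.30, 4.10 and 5.06 FPKM and fell (-0.74 ± 0.14, adjusted p 0.00482). Neither isoform's groups overlapped. Cox4i2 was at 0.267, 0.521 and 0.777 FPKM against 0.600, 0.380 and 0.773 FPKM, and no value of Cox6a2 or Cox8b reached 1 FPKM.

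In complex V of the IL-33 set both subunits of the catalytic head rose. Atp5a1 was at 393, 418 and 392 FPKM in the wild types and at 587, 604 and 588 FPKM in the labelled knockouts (0.56 ± 0.08, adjusted p 0.00146). Atp5b was at 388, 381 and 389 FPKM against 548, 565 and 532 FPKM (0.51 ± 0.08, adjusted p 0.00219). Atp5g1 had the largest rise, from 19.7, 28.2 and 22.7 FPKM to 43.5, 40.8 and 37.6 FPKM (0.78 ± 0.14, adjusted p 0.00356). Its 3 listed near-identical pseudogene copies summed to 104.3 FPKM on average in the wild types and 144.2 FPKM in the labelled knockouts. These sums are above the gene itself, so its value is less certain. The other c-ring genes, Atp5g2 (0.20 ± 0.10) and Atp5g3 (0.19 ± 0.09), did not pass. Atp5c1, Atp5f1, Atp5k and Atp5o rose by 0.36 to 0.51. The central stalk genes Atp5d (0.09) and Atp5e (0.12) did not pass, and Atp5l had the smallest difference (0.04 ± 0.11).

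**Figure D4:**
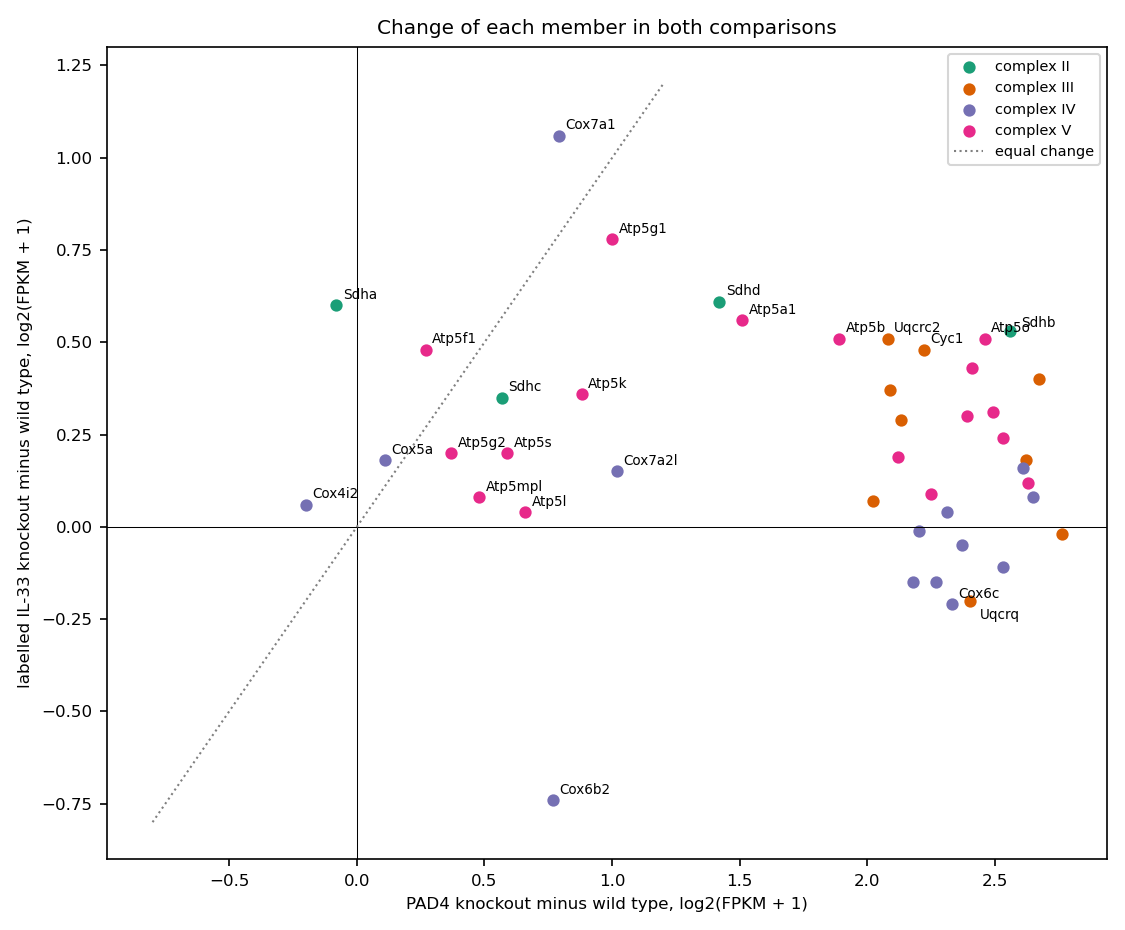
Change of each of the 44 members tested in both sets, with the PAD4 comparison on the x axis and the labelled IL-33 comparison on the y axis, both as log2(FPKM + 1), coloured by complex. A group of 27 members lies at 2 or more on the x axis with y values between -0.21 and 0.53, and the dotted line marks equal changes.

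Across the 44 members, changes in the comparisons had a Pearson r of -0.16 and a Spearman rho of -0.20, over genes that share libraries. The comparisons share no library. Called higher in both were 10 genes: Sdhb, Sdhd, Cyc1, Uqcrb, Uqcrc1, Uqcrc2, Atp5a1, Atp5b, Atp5c1 and Atp5o. Of all 13010 genes tested in both sets, 5.03% were called higher in both. Another 21 were called in the PAD4 set only and 7 in the IL-33 set only, namely Sdha, Sdhc, Cox7a1, Atp5f1, Atp5g1 and Atp5k as higher and Cox6b2 as lower. The difference of the changes was tested in a fit over all 12 libraries. For 29 of 44 members the change in the labelled IL-33 libraries was lower than in the PAD4 knockouts, and for 0 it was higher, where 6.23% and 6.18% of the 13010 genes tested in both passed. Those 29 were 1 of 4 genes of complex II, 9 of 9 of complex III, 10 of 14 of complex IV and 9 of 17 of complex V. Sdha differed the other way (0.67 ± 0.30, adjusted p 0.163), as did Atp5f1 (0.21), without passing. Because each set is its own batch, genotype and batch cannot be told apart in this difference.

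Measured against all FPKM not encoded in the mitochondrial genome, the 46 genes took 0.289% to 0.407% in the wild types of the PAD4 set and 1.02% to 2.43% in the PAD4 knockouts. For the IL-33 set this share was 1.89% to 2.17% in wild type and 2.37% to 2.44% in the labelled knockouts. The wild-type libraries of the PAD4 set therefore had the lowest share, and they are the reference for the rises reported above. Mean levels of the 46 genes ranked alike in both wild-type groups (Spearman rho 0.86 across members), and less alike between PAD4 knockouts and the wild types of the IL-33 set (0.80). Within the IL-33 set rho was 0.98, and within the PAD4 set 0.85.

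The partners of these complexes gave the following. Complex I subunits were higher for 15 of 36 tested in the PAD4 set (median change 0.92), with Ndufs8 from 14.4, 15.3 and 20.4 FPKM to 179.6, 78.2 and 116 FPKM (2.76 ± 0.35). They were higher for 12 of 36 in the IL-33 set (median 0.21), with Ndufs1 from 14.6, 16.9 and 14.9 FPKM to 30.7, 31.4 and 29.8 FPKM (0.94 ± 0.09). None was lower in either. Of the 6 mitochondrially encoded subunits of complexes III to V, 0 passed in either set (0 also at an unadjusted p under 0.05), with medians of -0.10 and 0.03. Cytosolic ribosomal protein genes, another large set of short transcripts, passed for 0 of 79 in the PAD4 set (median -0.01; 0 higher and 2 lower at an unadjusted p under 0.05). Of the same genes 21 of 79 were lower and 0 higher in the IL-33 set (median -0.16).

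Assembly factors, which build the complexes but are not part of them, were higher for 9 of 38 in the PAD4 set (median 0.48) and for 17 of 39 in the IL-33 set (median 0.29), with 0 lower. Cox20, a chaperone of complex IV, was first in both, going from 2.56, 5.19 and 4.98 FPKM to 19.5, 8.11 and 11.7 FPKM (1.39 ± 0.32) and from 5.65, 7.57 and 6.07 FPKM to 14.7, 16.1 and 16.02 FPKM (1.17 ± 0.12). Of electron carriers and partners named outside the rule, 6 of 12 were higher in the PAD4 set, led by Etfb (2.84 ± 0.38), the electron transfer flavoprotein, and Cycs (2.23 ± 0.35), cytochrome c. Atpif1, which inhibits the ATP synthase, was at 27.5, 29.7 and 35.4 FPKM in the wild types and at 78.4, 35.8 and 54.5 FPKM in the PAD4 knockouts (0.78 ± 0.34, adjusted p 0.117). The IL-33 set had it at 75.9, 89.2 and 69.1 FPKM against 80.2, 90.6 and 86.1 FPKM (0.14 ± 0.11).

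Of the regulators of mitochondrial biogenesis 9 of 18 were higher and 1 lower in the IL-33 set, and 3 of 17 were higher in the PAD4 set. Ppargc1a, the coactivator PGC-1alpha, was at 3.55, 5.25 and 5.24 FPKM in the wild types and at 11.8, 14.2 and 12.2 FPKM in the labelled knockouts (1.28 ± 0.15, adjusted p 0.000625). In PAD4 knockouts it went from 0.964, 1.55 and 1.75 FPKM to 4.81, 2.08 and 2.82 FPKM (0.77 ± 0.25, adjusted p 0.0358). Esrrg, a nuclear receptor that acts with it, rose in both (1.03 ± 0.11 and 0.59 ± 0.18). Pprc1, a relative of Ppargc1a, fell in the IL-33 set (-1.04 ± 0.16).

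Tubule markers moved in the IL-33 set too, whereas 0 of 6 smooth muscle and 0 of 4 neutrophil markers tested passed. Of lung markers 1 of 2 tested was lower. Of brown fat markers 1 of 3 was higher and 1 lower. The higher one was Ppargc1a, given above as a regulator of mitochondrial biogenesis. The 1 testis germ cell marker tested did not pass. Thick ascending limb markers were higher for 9 of 10, with sums of 1536 to 2279 FPKM in the wild types and 2954 to 3916 FPKM in the labelled knockouts. Proximal tubule markers were higher for 12 of 15 and lower for 1, Kap, an androgen-regulated protein. Kap was at 11465 to 15661 FPKM in the wild types and 7985 to 10286 FPKM in the labelled knockouts, and made up most of the summed marker level of 12495 to 17012 and 11165 to 14024 FPKM. Of the colon markers 2 of 4 tested were lower, led by Krt20, which injured tubules also express, at 349, 56.1 and 227 FPKM against 0.366, 0.359 and 0.239 FPKM. Their part in the differences of complexes II and V was not tested.

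A mitochondrial partner gene stood apart in the labelled libraries. Nnt, the inner-membrane transhydrogenase, was at 4.42, 0.261 and 3.35 FPKM in the wild types and at 38.8, 39.04 and 36.02 FPKM in the labelled knockouts (3.65 ± 0.48, adjusted p 0.00103). In the PAD4 set it stood at 0.702, 2.53 and 0.736 FPKM in the wild types and at 18.4, 0 and 0 FPKM in the knockouts, so that only knockout library 1 was high. As background, C57BL/6J mice carry a deletion within Nnt that C57BL/6N mice lack. The labels give no substrain, and the bearing of Nnt on the respiratory genes was not tested.

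Transcript length went along with the change in the IL-33 set. Across the 44 members the Spearman rho between length and change was 0.50 (Pearson r 0.45), beside 0.06 over 12174 protein-coding genes. Among members over 1500 bases 10 of 12 were higher, with a median of 0.48. Among those of 600 bases or less 3 of 11 were, with a median of 0.07. In between, 1 of 14 members of 600 to 900 bases and 2 of 7 of 900 to 1500 bases were higher. All coding genes over 1500 bases had a median of 0.07, and those of 600 or less -0.03. From the shortest range to the longest, 17.9%, 21.8%, 21.7% and 24.3% of all coding genes were higher. In the PAD4 set rho was -0.16 across 46 members and -0.10 over 12021 coding genes. All coding genes there had medians of 0.19, 0.28, 0.12 and -0.02 from the shortest range to the longest. In the same order, 19.9%, 16.3%, 10.8% and 6.85% of them were higher. Members had medians between 1.7 and 2.25 in every range, with 7 of 12, 10 of 15, 7 of 7 and 7 of 12 higher. These members share libraries and are not independent, and the part that length plays was not tested.

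**Figure D5:**
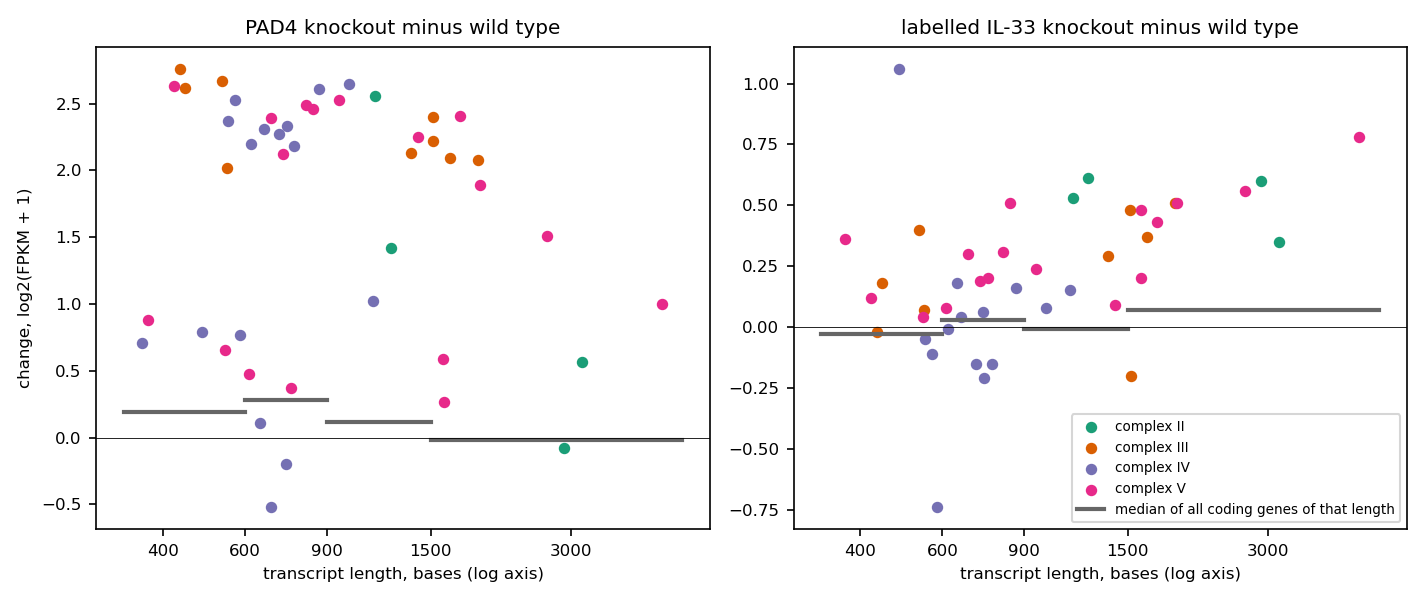
Change of each tested member against the length of its longest protein-coding transcript in bases (log axis), coloured by complex, for the PAD4 set (left) and the IL-33 set (right), with grey bars for the median of all protein-coding genes in 4 length ranges. In the IL-33 set 10 of the 12 members over 1500 bases were called higher, beside 24.3% of all coding genes of that length. In the PAD4 set all 4 length ranges hold members at 2 or more, 27 of 46 in all.

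Several members have near-identical copies in the genome, for which the authors' counting could share reads. In the GENCODE annotation 29 of the 46 had no pseudogene copy (at least 90% identity over at least 200 bases), 12 had 1 or 2, and 5 had 3 or more. Of the 29 without a copy 19 were higher in the PAD4 set, with a median change of 2.12, beside medians of 2.17 and 2.39 in the other classes. Values of Atp5l, Atp5g1, Atp5h and Uqcrb are the least certain. The 9 listed copies of Atp5l summed to 31.1 FPKM in the wild types of the PAD4 set and 60.1 FPKM in the knockouts, and the 4 of Atp5g1 to 47.6 and 110.5 FPKM, above the genes themselves. Sdha, Sdhb, Cox4i1 and Atp5a1 had no such copy, and the PAD4 set lists no pseudogene copy of Cox5a or Cox5b. Cox5b (Gm11273), Atp5l and Atp5o each matched 1 other protein-coding gene at the same identity and length. Whether reads were shared with those genes was not tested.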

How the data were processed

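FPKM values were deposited by the authors, as a separate table per set holding its libraries as columns (file headers). The labels' protocols describe poly(A) enrichment and strand-specific libraries. Tools listed in the submitters' processing notes are FastQC and cutadapt, HISAT2 and StringTie, and DESeq2 and edgeR, all without versions. The authors' genome build was not given in the sources used here. Symbols, lengths and copies (blastn 2.17.0) came from GENCODE vM21, in which 30212 of 32199 and 29690 of 31719 gene numbers had a symbol, and promoters from RefSeq. Rows with a matching name that were not protein-coding (6 and 7) were left out.

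Limma 3.58.1 (R 4.3.3, eBayes with a trend) was run on log2(FPKM + 1) in each table, for genes with a mean of at least 0.5 FPKM, with two-sided Benjamini-Hochberg adjusted p over all genes tested. The difference between comparisons was a contrast over 12 libraries. The script was checked on simulated data. With 3 libraries against 3 no exact permutation p can be under 0.1. FPKM carries no depth, so none is given. The labels call the 3 libraries of a group independent biological samples.

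Members and lists were chosen with earlier results of these data known. Genes named are a fixed set of core subunits, for each complex and comparison the 2 largest changes that passed and the smallest change, tissue-restricted isoforms, members that passed against their complex, and up to 3 genes per list by p. The ratios of Atp5g3, Sdhb and Cox5b to their partners, Nnt, Ucp1 and Cidea were named after their values were seen. Other settings were pseudocounts, filters, scalings, no trend, the replicate number as a block and each library left out.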

Additional observations from a re-analysis of the deposited data

Results flagged for a closer look

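The change of 29 members differed between the comparisons (limma contrast over 12 libraries, adjusted over 13010 genes). Each value is the change in the labelled IL-33 libraries minus that in the PAD4 knockouts, on the log2(FPKM + 1) scale. Genotype and batch cannot be told apart here. In complex II the difference was -2.03 for Sdhb. In complex III it was -1.74 for Cyc1, -2.78 for Uqcr10, -2.45 for Uqcr11, -2.27 for Uqcrb, -1.71 for Uqcrc1, -1.56 for Uqcrc2, -1.85 for Uqcrfs1, -1.96 for Uqcrh and -2.60 for Uqcrq. In complex IV it was -2.33 for Cox4i1, -2.45 for Cox5b, -2.65 for Cox6a1, -2.21 for Cox6b1, -1.51 for Cox6b2, -2.54 for Cox6c, -2.26 for Cox7a2, -2.56 for Cox7b, -2.42 for Cox7c and -2.42 for Cox8a. In complex V it was -1.39 for Atp5b, -1.98 for Atp5c1, -2.16 for Atp5d, -2.50 for Atp5e, -1.93 for Atp5g3, -2.09 for Atp5h, -2.18 for Atp5j, -2.29 for Atp5j2 and -1.95 for Atp5o. Cox6b2 differs from the other 28 in that its change was below 0 in the labelled IL-33 libraries and passed there.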

How the results depend on the processing

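With no filter on level, 0 genes and 0 members passed in the PAD4 set, and the cause was not tested. The changes themselves are the same there. In the other settings that kept all libraries, 30 to 33 members passed as higher in the PAD4 set. With a library left out, 2473 genes called in the PAD4 set became 1064 (without wild-type library 1, 28 members higher) to 3534, and 1323 without wild-type library 3. The 5671 of the IL-33 set became 3626 to 6131, with 3687 without labelled knockout library 3. The median change of the members in the IL-33 set, 0.197, was 0.104 under median-of-ratios scaling, 0.240 as TPM, 0.245 when scaled to genes not encoded in the mitochondrial genome, and 0.154 to 0.267 with a library left out. The difference between comparisons passed for 28 to 32 members in the alternatives run, with 1 of 31 in the other direction under quantile normalization.

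Single changes were followed through the other settings only for the core subunits, the isoforms and the largest and smallest changes. Some of these changes turned sign. In the PAD4 set these were Atp5f1 (-0.006) and Cox5a (-0.173) under quantile normalization and Cox8b (-0.061) with a pseudocount of 0.1. For the IL-33 set Atp5l (-0.052), Cox7b (-0.008) and Uqcrh (-0.027) turned under median-of-ratios scaling, and Atp5l (-0.006) and Cox4i2 (-0.001) under quantile normalization. Cox6b1 (0.030 and 0.044) and Uqcr10 (0.021 and 0.035) turned as TPM and when scaled to genes not encoded in the mitochondrial genome. With a library left out, changes in the PAD4 set ran from -0.091 to 0.615 for Atp5f1, -0.219 to 0.436 for Cox5a, -0.885 to 1.694 for Cox8b and -0.269 to 0.099 for Sdha. Those in the IL-33 set ran from -0.062 to 0.132 for Atp5l, -0.061 to 0.183 for Cox4i2, -0.089 to 0.102 for Cox6b1, -0.044 to 0.201 for Cox7b, -0.103 to 0.112 for Uqcr10 and -0.024 to 0.158 for Uqcrh. None of these 10 was called, with all libraries, in the set where its sign turned, and Cox8b without knockout library 3 (-0.885) was called lower. Of named members not called, Atp5l passed in the PAD4 set without knockout library 2 (0.972) and Cox8b also without knockout library 1 (1.694) and wild-type library 2 (0.948). Without wild-type library 2 of the IL-33 set Atp5j2 (0.408), Cox5b (0.296) and Uqcrfs1 (0.364) passed, and Uqcrfs1 also under quantile normalization, as TPM and scaled to genes not encoded in the mitochondrial genome (0.321 to 0.338).

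The replicate numbers share no source in the labels, and deviations of same-numbered libraries had correlations of -0.146 to -0.016 in the PAD4 set and -0.014 to 0.134 in the IL-33 set. With the replicate block, 30 members were higher in the PAD4 set, 16 higher and 1 lower in the IL-33 set, and the difference passed for 29.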
